A study of Saccharomyces cerevisiae with 180 samples.

Results

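The last nucleosomes before the stop codon were taken as the atlas nucleosomes whose centre lay in exactly 1 protein-coding open reading frame (ORF) of at least 1000 bp and 0 to 165 bp upstream of its stop codon. Of 65032 nucleosomes with counts, 3551 met this rule (5.46%), in 3334 ORFs, and another 41 nucleosomes that met it had no counts. In 3117 ORFs 1 such nucleosome was found and in 217 ORFs 2, which then share a gene and are not independent. The median distance from the nucleosome centre to the stop codon was 78 bp. The downstream neighbour was convergent (transcribed towards the ORF, so that both genes end in the shared gap) for 1826 nucleosomes and tandem (transcribed in the same direction, so that the gap leads into the next promoter) for 1718, and 7 had no neighbour. The rule itself used no measured level of a mark, but it was chosen with earlier results of these data known.

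The nucleosome before the stop codon sits where RNA polymerase II leaves the coding sequence and approaches the polyadenylation signals. In budding yeast, trimethylation of histone H3 lysine 4 (K4me3) is laid down by Set1 near the start of transcribed genes, acetylation of lysine 18 (K18ac) is most abundant around active promoters, trimethylation of lysine 36 (K36me3) is laid down by Set2 travelling with elongating polymerase, and trimethylation of lysine 79 (K79me3) is laid down by Dot1 over gene bodies. Methylated lysine 36 is read by Eaf3, a subunit of the histone deacetylase complex Rpd3S, which removes acetyl groups behind the polymerase.

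The study mapped these marks on mononucleosomes of Saccharomyces cerevisiae by combinatorial indexed chromatin immunoprecipitation, where chromatin pulled down with one antibody is bar-coded and pulled down again with another. A first set of 120 libraries came from 4 strains, one labelled WT H3 and 3 whose H3 has arginine in place of lysine 4 (H3K4R), lysine 18 (H3K18R) or lysine 36 (H3K36R). Each was taken through 5 first antibodies, for H3 and the 4 marks, and 6 second steps, for the same targets or Input. Input is taken as chromatin that passed only the first antibody, a reading that the labels leave unstated. A second set of 60 libraries came from 3 strains labelled bar1, set2 and eaf3, in which the first antibody was against one of the 4 marks and the second step was one of those antibodies or Input, and it held no H3 library. All strains were grown in rich glucose medium, fixed with formaldehyde and digested with micrococcal nuclease. Each library existed once and nothing in the labels says how many cultures lay behind it, so every spread below is a spread between strains of different genotype or between antibody combinations, and p-values measure only that spread.

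Libraries held 150 to 2693698 reads, and 32 of 180 held under 10000. The last nucleosomes took 4.71% of all reads. The sum of the 4 H3-first Input libraries, used as the reference for nucleosome occupancy, held 941118 reads, with a median of 14 on a last nucleosome, at least 20 on 387 of them and 0 on 1. Values of single nucleosomes are therefore coarse, and sums over nucleosomes carry most of what follows. The strain labels were checked on the deleted loci, where EAF3 held 6.73 RPM (per-million reads, the reads of a feature scaled to the library total) in the eaf3 strain against 102 to 118 in the others and SET2 held 7.67 in the set2 strain against 252 to 353. BAR1 held 125 RPM over the libraries of the strain labelled bar1 and 75.1 to 159 in the other strains, so that label was not visible as a deletion.

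Levels of a mark are given as the log2 ratio of the share of a library's reads that fell on a set of nucleosomes to the share in the H3 reference, with 0.5 reads added, so that 0 is the level that the amount of H3 alone would give. In the WT H3 strain the last nucleosomes were poor in K4me3, nearer to their H3 level in the other 3 marks, and different between both neighbour classes in all 4 marks. K4me3 stood at -1.36 before convergent neighbours and -0.92 before tandem ones. K18ac stood at -0.35 and 0.02, K36me3 at 0.26 and 0.00, and K79me3 at -0.05 and -0.35. The convergent class was thus lower in the promoter-linked marks K4me3 and K18ac and higher in the gene-body marks K36me3 and K79me3. Preceding nucleosomes, 166 to 330 bp before the stop codon, differed between the classes in the same directions. There WT H3 stood at -1.16 and -0.83 in K4me3 and at -0.34 and -0.09 in K18ac. K36me3 stood at 0.39 and 0.26 there, and K79me3 at 0.09 and -0.09. The 326 nucleosomes just inside the upstream border of the window (150 to 165 bp) and the 373 just outside it (166 to 181 bp) had WT H3 levels of -1.05 and -0.99 in K4me3, -0.23 and -0.08 in K18ac, 0.27 and 0.30 in K36me3, and -0.05 and -0.07 in K79me3.

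The K36me3 difference between neighbour classes was the most even one over strains. Convergent and tandem levels were 0.26 and 0.00 in WT H3, 0.32 and 0.05 in H3K4R, 0.26 and 0.01 in H3K18R, 0.55 and 0.11 in bar1, and 0.46 and 0.10 in eaf3. In all 5 strains that can carry the mark the convergent class was higher, by 0.32 ± 0.08 (SD, n = 5 strains), and the strain values of both classes did not overlap. The two-sided exact sign-flip permutation test gave p = 0.0625, the smallest value that 5 strains allow, and 0.125 after Benjamini-Hochberg adjustment over 8 tests, so the difference could not pass 0.05 in this design.

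K79me3 was higher before convergent neighbours in all 7 strains, by 0.23 ± 0.13 (SD, n = 7). The convergent levels ran from -0.25 in H3K36R to 0.29 in bar1 and the tandem levels from -0.41 in H3K36R to 0.16 in eaf3. Differences were 0.30 in WT H3, 0.28 in H3K4R, 0.31 in H3K18R, 0.15 in H3K36R, 0.39 in bar1, 0.11 in set2 and 0.04 in eaf3. The bar1 value rests on 348 convergent reads of a library of 10044, with a 95% interval for the level of 0.13 to 0.44 that covers counting error only. The exact permutation test gave p = 0.0156, the smallest that 7 strains allow, and 0.125 after adjustment.

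K4me3 was lower before convergent neighbours in all 6 strains that can carry it, by -0.23 ± 0.21 (SD, n = 6). The difference was -0.44 in WT H3, -0.43 in H3K18R and -0.38 in H3K36R, all of the first library set, but -0.10 in bar1, -0.03 in set2 and -0.01 in eaf3, all of the second. The average of the first set was -0.42 ± 0.04 (SD, n = 3) and that of the second -0.05 ± 0.05 (SD, n = 3), so the size of the difference moved with the library set. Library set and strain background cannot be told apart here, and the exact permutation test over all 6 strains gave p = 0.0312, the smallest possible, and 0.125 after adjustment. Without the H3 reference, as a plain share of reads, the difference was 0.036, since the convergent set holds more nucleosomes and more H3 reads per nucleosome (14.7 against 12.9).

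K18ac differed less evenly between the classes. The convergent level was below the tandem one by 0.37 in WT H3, 0.27 in H3K4R, 0.08 in H3K36R and 0.22 in bar1, and above it by 0.09 in set2 and 0.03 in eaf3. The mean difference of -0.14 ± 0.18 (SD, n = 6) was within the spread between strains, with an exact permutation p of 0.188 and 0.30 after adjustment. The sign turned with another way of averaging, as the median over nucleosomes with at least 20 H3 reads gave 0.17. A plain share of reads gave 0.13, but it drops the H3 reference. The convergent set holds more nucleosomes and more H3 reads per nucleosome, which raises such a share.

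**Figure D1:**
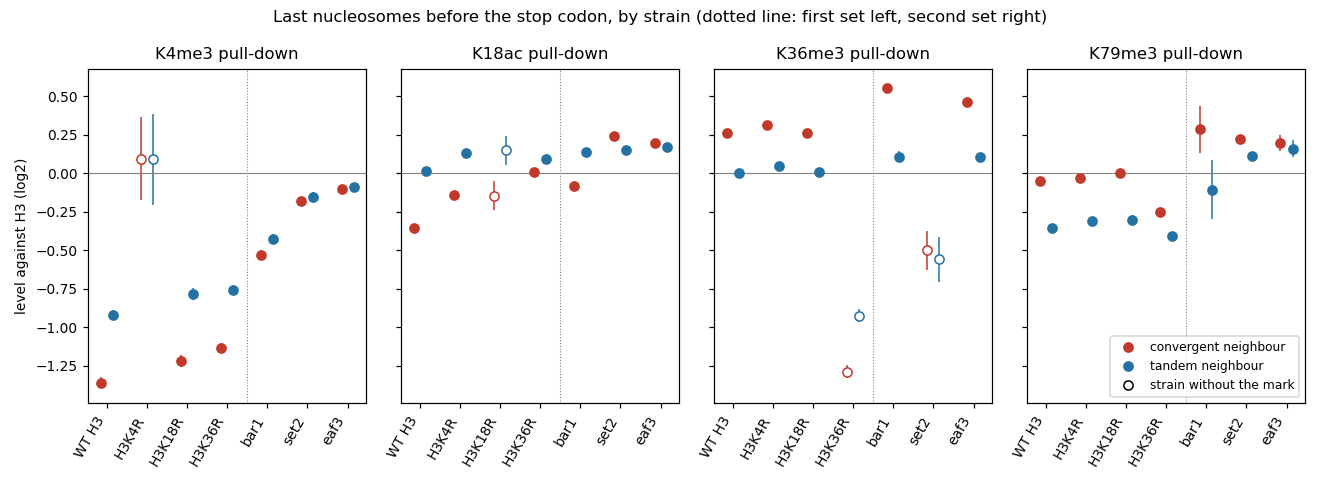
Level of each mark on last nucleosomes (y axis, log2 of the share of reads over the share in the H3 reference) in each strain (x axis), with 1 point per Input library and neighbour class, 95% counting intervals as lines and open points for strains that lack the mark. K36me3 and K79me3 lie higher in the convergent class in every strain that can carry the mark, whereas K4me3 lies lower by 0.44 in WT H3 and by 0.01 in eaf3.

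The plot of levels by strain also holds the pull-downs in strains that lack the residue or its enzyme, which show what an antibody without its target recovers. K4me3 antibody in H3K4R gave 0.09 in both classes, from 3639 reads. K18ac antibody in H3K18R gave -0.15 before convergent and 0.15 before tandem neighbours, from 37544 reads, which is a class difference of the same sign as in WT H3. K36me3 antibody in H3K36R gave -1.29 and -0.92, and in set2, from 24149 reads, -0.50 and -0.56. In the convergent class these last levels lie below all of the strains that can carry K36me3.

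H3 itself also differed between the classes. Each of the 4 H3 libraries had more reads per nucleosome in the convergent class, by 0.16, 0.20, 0.17 and 0.17 on the log2 scale in WT H3, H3K4R, H3K18R and H3K36R. The levels above are relative to this H3, and its part in the second library set, which has no H3 library, was not tested.

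The classes differ in the room behind the stop codon. The gap to the neighbouring ORF had a median of 238 bp (quartiles 146 and 349.75) in the convergent class and 400.5 bp (288.25 and 627) in the tandem class, while the ORFs were of like length (medians 1680 and 1729.5 bp). Averaged over the strains that can carry each mark, last nucleosomes with under 200 bp of gap differed most between classes in K4me3, with -0.75 before 728 convergent neighbours against -0.24 before 91 tandem ones. From 200 to under 300 bp the K4me3 difference was -0.36, from 300 to under 500 bp -0.29, and at 500 bp or more -0.19. K18ac followed the same order, with differences of -0.46, -0.33, -0.16 and -0.10. The tandem nucleosomes carried this trend, their K18ac level running from 0.48 in the shortest gaps to -0.10 in the longest.

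K36me3 was higher in the convergent class in all 5 strains at every gap length, by 0.33, 0.50, 0.31 and 0.13 from the shortest to the longest gaps. The K36me3 level itself stayed at 0.03, -0.03, 0.08 and 0.08 in the tandem class and was 0.35, 0.46, 0.38 and 0.20 in the convergent class. K79me3 differences were 0.21 ± 0.39, 0.23 ± 0.20, 0.11 ± 0.21 and 0.07 ± 0.05 (SD, n = 7 strains), above 0 in 5, 5, 5 and 6 of the 7, and under 200 bp and from 300 to under 500 bp they were smaller than the spread between strains. The mean class difference was smallest at 500 bp or more in all 4 marks, and largest under 200 bp in K4me3 and K18ac but from 200 to under 300 bp in K36me3 and K79me3.

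**Figure D2:**
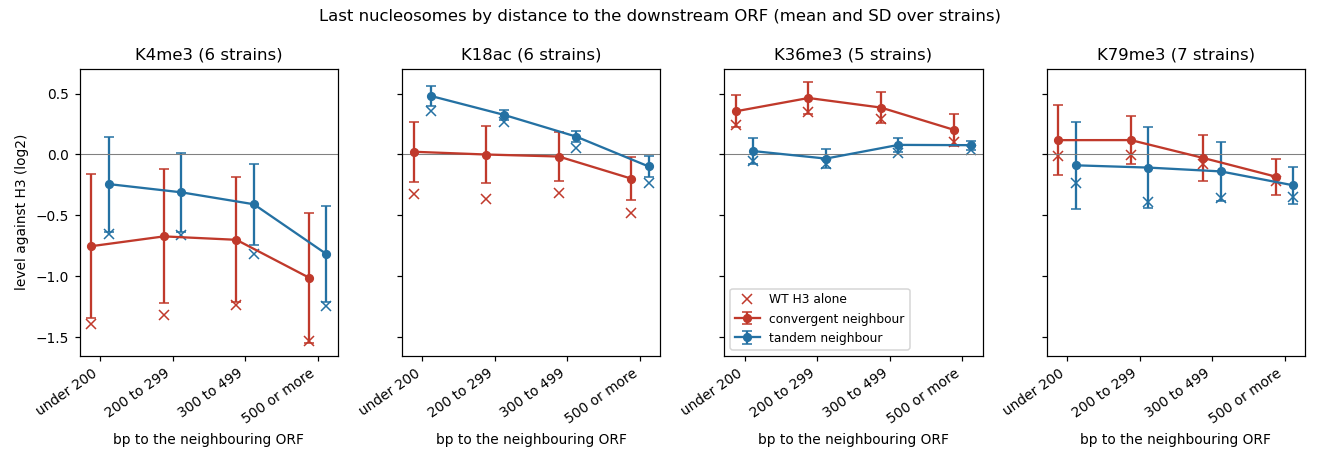
Level (y axis, log2 of share over H3 share) of each mark on last nucleosomes by the distance to the downstream ORF (x axis, bp in 4 classes), as mean and SD over the strains that can carry the mark, with crosses for WT H3 alone. Tandem K18ac falls from 0.48 under 200 bp to -0.10 at 500 bp or more, whereas mean convergent K36me3 is above mean tandem K36me3 in each class.

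ORF length moved the K4me3 level but barely the class difference. Last nucleosomes of convergent ORFs of 1000 to under 1500 bp had a mean K4me3 level of -0.43, and those of ORFs of 3000 bp or more had -1.29, with -0.23 and -1.02 for tandem ORFs. In WT H3 the longest convergent ORFs reached -2.05. The class difference was -0.20, -0.28, -0.28 and -0.28 over the 4 length classes for K4me3 and 0.37, 0.31, 0.30 and 0.27 for K36me3.

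Levels were also read along the ORF in windows of 165 bp. Windows beyond the stop codon took nucleosomes outside every ORF, and only where the gap reached that far, so they hold a part of the genes. Between convergent genes a nucleosome can fall in both of these windows. WT H3 K4me3 in the convergent class ran from 0.08 in the window 990 to 825 bp before the stop codon down to -1.36 at the last nucleosomes. It stayed at -1.31 and -1.22 in both windows beyond the stop codon. In the tandem class it ran from 0.00 to -0.92, was -1.13 just beyond the stop codon and came back to 0.12 in the window after that. K36me3 was highest before the last nucleosome, at 0.45 in the convergent and 0.38 in the tandem class, and was 0.26 and 0.00 at the last nucleosome. Beyond the stop codon it was -0.13 and then -0.37 in the convergent class, and -0.56 and then -1.50 in the tandem class. The last nucleosome was thus the last position at which WT H3 K36me3 was at its H3 level in both classes, or above. K79me3 stood at 0.09 and -0.09 in the preceding window, -0.05 and -0.35 at the last nucleosome and -0.36 and -0.74 beyond the stop codon. K18ac in the tandem class ran up towards the next gene, from -0.26 through 0.02 at the last nucleosome to 0.42. The bar1 strain of the second library set had another course, with convergent K36me3 at 0.37 in the preceding window, 0.55 at the last nucleosome and 0.63 just beyond the stop codon, and convergent K4me3 at -0.69 in the preceding window and -0.53 at the last nucleosome.

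**Figure D3:**
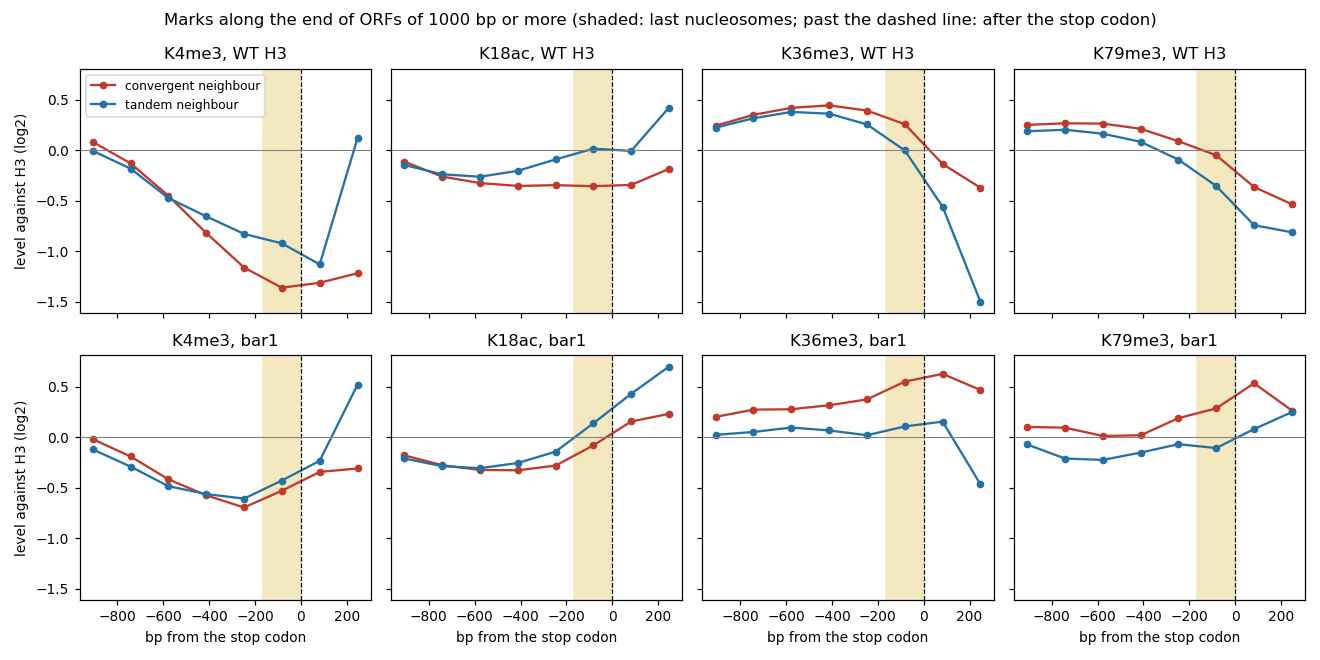
Level of each mark (y axis, log2 of share over H3 share) in 165 bp windows by distance from the stop codon (x axis, bp, negative within the ORF) in WT H3 (upper panels) and bar1 (lower panels), for convergent and tandem neighbours; shading marks the window of the last nucleosomes. WT H3 K36me3 stands at 0.26 and 0.00 in that window and at -0.37 and -1.50 at the right end, whereas bar1 K36me3 stands at 0.55 and 0.11 in that window. Windows beyond the stop codon hold only genes whose gap reaches them.

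Set against the nucleosomes 166 to 330 bp before the stop codon in the same ORFs (3142 last and 3145 preceding nucleosomes), no mark passed the test over strains. K36me3 at the last nucleosome was lower by 0.20 ± 0.01 (SD, n = 3) in the first library set but higher by 0.12 in the second, where bar1 gave 0.15 and eaf3 0.09. K4me3 was lower by 0.16 ± 0.04 (SD, n = 3) in the first set and higher by 0.15 ± 0.03 (SD, n = 3) in the second. K79me3 was lower by 0.21 ± 0.02 (SD, n = 4) in the first set and higher by 0.13 ± 0.12 (SD, n = 3) in the second. Strains of both sets thus lay on opposite sides of 0 in these marks, but the K79me3 value of bar1 was 0.005 from a library of 10044 reads and its side is not resolved at this depth. The means over all strains were -0.07 ± 0.18 (SD, n = 5) for K36me3, -0.01 ± 0.17 (SD, n = 6) for K4me3 and -0.06 ± 0.20 (SD, n = 7) for K79me3, with adjusted exact permutation p-values of 0.50, 0.906 and 0.50. K18ac was higher at the last nucleosome in 5 of 6 strains, by 0.13 ± 0.09 (SD, n = 6), with an exact permutation p of 0.0625 and 0.125 after adjustment. H3 libraries had 0.13 to 0.15 fewer log2 reads per nucleosome at the last than at the preceding position, and that value could be had for the first set only.

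Consecutive pull-downs carried the class difference of the mark that both steps share. Over libraries of at least 10000 reads, K36me3 followed by K36me3 was higher before convergent neighbours in 5 of 5 strains, by 0.34 ± 0.07 (SD). K36me3 followed by K79me3 was higher in 5 of 5, by 0.37 ± 0.10 (SD), and the reverse order in 4 of 4, by 0.36 ± 0.16 (SD). K79me3 followed by K79me3 was higher in 6 of 6, by 0.24 ± 0.14 (SD). Nucleosomes recovered with both gene-body marks were therefore skewed to convergent ORFs in every library read.

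Pairs of promoter-linked marks lay on the other side. K4me3 followed by K4me3 was lower before convergent neighbours in 6 of 6 strains, by -0.36 ± 0.16 (SD). K4me3 followed by K18ac was lower in 5 of 5, by -0.31 ± 0.23 (SD), and K18ac followed by K4me3 in 4 of 5, by -0.32 ± 0.24 (SD). Of the mixed pairs, K79me3 followed by K4me3 was lower before convergent neighbours in 5 of 5 strains, by -0.16 ± 0.09 (SD). Other mixed pairs had mean differences nearer to 0, with -0.05 for K4me3 followed by K36me3 (2 of 4 above 0), 0.00 for the reverse order (2 of 4) and 0.01 for K18ac followed by K36me3 (3 of 4). H3-first material, which is not enriched for a mark in its first step, gave 0.35 ± 0.07 (SD, n = 3 strains) with K36me3 as second antibody and 0.24 ± 0.05 (SD, n = 4) with K79me3. With K18ac as second antibody H3-first material gave 0.12 ± 0.17 (SD, n = 3), from libraries of 4104 to 9020 reads. Libraries that share a first step share its material, and these pairs were not tested.

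**Figure D4:**
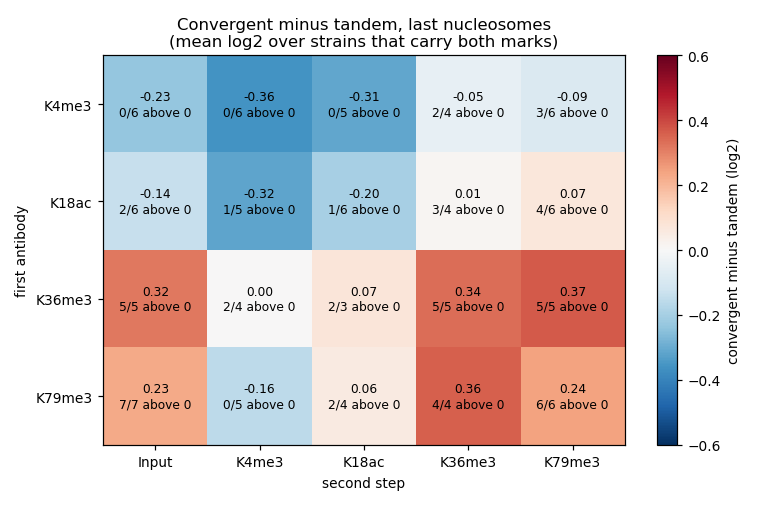
Convergent minus tandem level on last nucleosomes (colour and printed value, log2, mean over strains that can carry both marks, libraries of at least 10000 reads) by first antibody (y axis) and second step (x axis), with the number of strains above 0. Pairs of K36me3 and K79me3 lie above 0, with 0.34 for K36me3 taken again, and pairs of K4me3 and K18ac lie below 0, with -0.36 for K4me3 taken again.

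Single nucleosomes were compared with H3 in the Input libraries of the first set, with edgeR's quasi-likelihood test over 63951 nucleosomes and Benjamini-Hochberg adjustment at 0.05. Of the last nucleosomes 3537 could be tested. K4me3 was lower than H3 at 1754 of them (49.6%, against 33.2% of all nucleosomes tested), of which 1023 had a convergent neighbour, and higher at 72 (2.04%, against 20.4%), of which 51 had a tandem neighbour. TMM scaling, which moved the K4me3 median of all nucleosomes from -0.38 to -0.02, gave 162 higher and 1388 lower, and the count of higher ones was 38 without H3K4R and 40 without WT H3. The median log2 fold change was -1.54 before convergent and -1.12 before tandem neighbours, beside -0.38 over all nucleosomes. At preceding nucleosomes the K4me3 medians were -1.33 and -1.03, with 48.0% lower and 4.16% higher. K36me3 was higher at 262 (7.41%, against 11.1%) and lower at 347 (9.81%, against 28.3%). Of the higher ones 169 were convergent and 93 tandem, and of the lower ones 116 and 231, with medians of 0.31 and 0.03 beside -0.09 over all. Among preceding nucleosomes 15.5% were higher and 8.34% lower in K36me3. TMM scaling, which moved the median of all nucleosomes from -0.09 to 0.15, gave 658 higher and 287 lower.

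K79me3 and K18ac were called at few last nucleosomes. K79me3 was higher at 15 (0.424%, against 1.74%), 13 of them convergent, and lower at 251 (7.10%, against 9.59%), of which 161 were tandem. K18ac was higher at 60 (1.70%, against 3.49%), of which 51 were tandem, and lower at 91 (2.57%, against 4.01%), of which 39 were convergent and 52 tandem. With TMM scaling K18ac was higher at 92 and lower at 71. Without the H3K4R strain, whose H3 library is the deepest, the counts were 56 higher and 177 lower for K36me3, 0 and 48 for K79me3, and 5 and 14 for K18ac.

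High K4me3 at the end of an ORF was seen for SED1, which encodes an abundant cell wall protein, at chromosome IV 601616 to 601766 (build sacCer3), 118 bp before the stop codon and with SHU2 as convergent neighbour. It held 34.3, 22.8 and 38.0 RPM in the K4me3 libraries of WT H3, H3K18R and H3K36R, and 5.34, 9.52, 0 and 15.2 in the H3 libraries of WT H3, H3K4R, H3K18R and H3K36R. The K4me3 libraries lay above all H3 libraries, with a log2 fold change of 1.94 (adjusted p = 4.8e-04). UGA2, a dehydrogenase of the pathway that uses gamma-aminobutyrate, followed with 1.89, and before tandem neighbours LAP3, a cysteine aminopeptidase, had 2.14 and DIA4, a mitochondrial seryl-tRNA synthetase, 2.12. The ORFs of SED1, UGA2, LAP3 and DIA4 are 1017, 1494, 1365 and 1341 bp long, beside a median of 1708.5 bp over all last nucleosomes. How far nearness to the start codon enters these values was not tested.

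The strongest K4me3 depletion was seen where no read was found in any of the 3 K4me3 libraries. The nucleosome of RAD1, a nuclease subunit of nucleotide excision repair, lay at chromosome XVI 509852 to 510002, 72 bp before the stop codon. It held 10.7, 19.0, 14.7 and 10.1 H3 RPM in WT H3, H3K4R, H3K18R and H3K36R, which makes K4me3 at least 11.7-fold lower against a floor of 3 reads over the 3 libraries. By the same floor K4me3 was at least 17.6-fold lower at YLL054C, a putative zinc-cluster transcription factor. THI13, of a family of thiamine synthesis genes, was at least 18.4-fold lower, and YOR192C-B, an ORF of a Ty retrotransposon, at least 23.4-fold. THI13 and the Ty ORF have near-identical copies, so how reads were shared among copies is uncertain there. In the second library set all 4 held K4me3 reads, with 1.71 to 16.01 RPM over bar1, set2 and eaf3.

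K36me3 was high at the end of NRD1, which encodes an RNA-binding protein that ends transcription of short non-coding RNAs, at chromosome XIV 172631 to 172781. It held 22.7, 26.7 and 30.3 RPM in the K36me3 libraries of WT H3, H3K4R and H3K18R, against 21.4, 2.38, 7.33 and 0 in the H3 libraries of WT H3, H3K4R, H3K18R and H3K36R (log2 fold change 1.99, adjusted p = 0.001). In the WT H3 strain alone mark and H3 were close to equal, so the call rests on the other strains. SLM3, an enzyme that modifies mitochondrial tRNA, had 2.07 from 4 H3 reads. APL2, a clathrin adaptor subunit, and SRP72, of the signal recognition particle, were called for K36me3 and K79me3 (APL2 also for K18ac) on 1 and 2 H3 reads in all, so no fold is given. APL2 held 20.3, 14.5 and 27.9 K36me3 RPM in WT H3, H3K4R and H3K18R.

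The nucleosomes with the largest K36me3 decreases belonged to a meiotic gene, a repeated gene and poorly characterised ORFs. MEK1, a kinase of meiotic recombination, held 0.40, 0 and 0.80 RPM in the K36me3 libraries of WT H3, H3K4R and H3K18R at chromosome XV 995020 to 995170. Its 4 H3 libraries held 16.03, 16.7, 7.33 and 5.07, so the groups did not overlap (log2 fold change -4.91, adjusted p = 1.8e-06). YMR244W, an uncharacterised ORF, had -5.05, MCH2, a gene related to monocarboxylate permeases, -5.04, and ERR1, an enolase-related gene with near-identical copies, -4.68. The K79me3 decreases were led by RRN5, a factor of RNA polymerase I transcription, with 1 read in the 4 K79me3 libraries against 8 H3 reads, and by the multicopy genes ERR3, IMA4 (-3.78) and IMA3 (-3.63), the last a pair of near-identical isomaltases.

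K18ac was high at the end of WRS1, the tryptophanyl-tRNA synthetase, at chromosome XV 136572 to 136722. It held 31.7, 35.04 and 23.7 RPM in the K18ac libraries of WT H3, H3K4R and H3K36R, above the 5.07 to 10.7 of the H3 libraries (log2 fold change 1.99, adjusted p = 0.007). GLG1, which primes glycogen synthesis, had 2.66 from 4 H3 reads. UBR2, part of a ubiquitin ligase, held 19.2, 10.8 and 11.5 RPM in those 3 strains, with 2 H3 reads. K18ac was low at KRE6, which is needed for cell wall glucan (-2.14), SNF3, a sensor of low glucose (-2.30), IMD2, an IMP dehydrogenase with close paralogs (-2.32), and COS10, of a subtelomeric gene family (-2.52).

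Gene lists were described by their counts and medians beside those of all last nucleosomes. They were not matched for ORF length, with which the K4me3 level moved. Genes of galactose use, which glucose represses, had a median K36me3 log2 fold change of -2.13 over 6 nucleosomes, beside 0.20 over all last nucleosomes. K36me3 was lower at 5 of the 6, against 9.81% of last and 28.3% of all nucleosomes. These are GAL2 (-3.52), the galactose permease, GAL10 (-3.49) and GAL7 (-2.48), enzymes of the Leloir pathway, GAL3 (-1.79), the sensor, and GAL4 (-1.66), the activator. GAL2 held 1.20, 1.86 and 0.80 K36me3 RPM in WT H3, H3K4R and H3K18R, below the 10.7, 19.0, 14.7 and 20.3 of its H3 libraries. GAL1, the galactokinase, had 0.64 and did not pass. K79me3 was lower at 3 of these 6 nucleosomes (GAL2, GAL3 and GAL7), against 7.10% of last and 9.59% of all, with a median of -1.67 beside -0.20. K4me3 was lower at 2 (GAL2 and GAL7), against 49.6% and 33.2%, and K18ac at GAL7, against 2.57% and 4.01%.

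Genes of translation, the plasma membrane and chaperones lay at the other end, with a median K36me3 log2 fold change of 0.72 over 11 nucleosomes. K36me3 was higher at 3 of them, against 7.41% of last and 11.1% of all nucleosomes, and lower at 0. HSC82, a constitutive Hsp90 chaperone, held 17.9, 24.5 and 22.3 K36me3 RPM in WT H3, H3K4R and H3K18R, against 5.34, 9.52, 7.33 and 0 in the H3 libraries, with a log2 fold change of 1.73. SSA1, an Hsp70 chaperone, had 1.44 and EFT1, an elongation factor of translation, 1.09, and both have a near-identical second gene. K4me3 was lower at EFT1 (-2.17), YEF3 (-1.90), another elongation factor, and PMA1 (-1.15), the plasma membrane proton pump. These are 3 of 11, against 49.6% of last and 33.2% of all nucleosomes. K18ac was lower at PMA1 (-1.48) and K79me3 at TEF2 (-1.47), the translation elongation factor eEF1A. Each is 1 of 11, against 2.57% of last and 4.01% of all nucleosomes in K18ac and 7.10% and 9.59% in K79me3.

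Glycolysis and fermentation genes, among the most transcribed in glucose, had no K36me3 call at 12 last nucleosomes, with a median of 0.50. Over last nucleosomes 7.41% were higher and 9.81% lower in K36me3, and over all nucleosomes 11.1% and 28.3%. Their K4me3 median was 0.31, beside -1.33 over all last nucleosomes. FBA1, the aldolase, was higher in K4me3 (1.24, adjusted p = 0.010), with 35.6, 36.1 and 29.6 RPM in WT H3, H3K18R and H3K36R against 5.34 to 29.3 in the H3 libraries. It is 1 of 12, against 2.04% of last and 20.4% of all nucleosomes. PFK1 (-2.78) and PFK2 (-1.89), the subunits of phosphofructokinase, were lower (2 of 12, against 49.6% of last and 33.2% of all nucleosomes). Their ORFs are 2964 and 2880 bp long, and the other ORFs of the list 1047 to 1692 bp. K79me3 had a median of -0.78 beside -0.20, and was lower at PDC1 (-1.56), pyruvate decarboxylase, and ADH1 (-1.48), alcohol dehydrogenase. These are 2 of 12, against 7.10% of last and 9.59% of all nucleosomes.

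Genes of transcription and chromatin had a median K4me3 log2 fold change of -2.05 over 15 nucleosomes, beside -1.33 over all last nucleosomes. K4me3 was lower at 11 (against 49.6% of last and 33.2% of all nucleosomes) and higher at 0. Their ORFs ran from 1206 to 6696 bp, beside a median of 1708.5 bp over all last nucleosomes. RPO21, the largest subunit of RNA polymerase II, held 0, 3.80 and 1.85 K4me3 RPM in WT H3, H3K18R and H3K36R against 42.7, 14.3, 7.33 and 15.2 in the H3 libraries (-3.43). SIN3, a scaffold of Rpd3 complexes, had -3.08 and EAF3 -2.88. K36me3 was higher at SPT16, a histone chaperone of elongation (1.01), and at NRD1, 2 of 15 against 7.41% of last and 11.1% of all nucleosomes. K18ac was lower at EAF3 (-1.64), 1 of 15 against 2.57% and 4.01%. Of 7 genes used as models of elongation or internal promoters, only FMP27, PCA1 and VPS13 had a last nucleosome in the window. Their ORFs are 7887, 3651 and 9435 bp long. K4me3 was lower at all 3 (-3.21, -2.44 and -3.46), against 49.6% of last and 33.2% of all nucleosomes. K79me3 was lower at VPS13 (-1.98), against 7.10% of last and 9.59% of all nucleosomes. Neither K18ac nor K36me3 was called in these 3.

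The strains H3K36R, set2 and eaf3 lack lysine 36, its methyltransferase or its reader. Changes are given as the log2 ratio of the share of a library's reads on last nucleosomes to that in the reference strain of the same library set, which is WT H3 for H3K36R and bar1 for set2 and eaf3. K36me3 pull-down itself changed by -1.55 before convergent and -0.92 before tandem neighbours in H3K36R, by -1.05 and -0.67 in set2, and by -0.09 and -0.01 in eaf3. H3 changed by 0.00 and -0.02 in H3K36R.

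In H3K36R, combinations with K18ac changed more at last nucleosomes before convergent neighbours than before tandem ones. The Input library changed by 0.36 and 0.07, K18ac taken again by 0.33 and 0.05, K18ac followed by K4me3 by 0.59 and 0.30, K18ac followed by K79me3 by 0.18 and 0.11, K4me3 followed by K18ac by 0.57 and 0.19, and K79me3 followed by K18ac by 0.08 and -0.12. The convergent change was the larger one in all 6 combinations with K18ac, by 0.25 ± 0.11 (SD), and in 3 of the 6 without it, with a mean of -0.03 ± 0.11 (SD). The difference of 0.29 had p = 0.0022 in an exact two-sided permutation test of the 12 combinations (adjusted p = 0.0195 over 18 tests), but with reads taken as a share of the same ORFs it was 0.23 with an adjusted p of 0.078. Combinations share first-step material and a single strain, so this p compares antibody combinations and not cultures.

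Over both classes together, combinations without K79me3 gained share on last nucleosomes in H3K36R and those with it did not. The 6 without K79me3 changed by 0.27 ± 0.10 (SD), all 6 above 0, and the 6 with it by -0.01 ± 0.12 (SD), 3 of them above 0. The difference of -0.28 had the same exact permutation p of 0.0022 and adjusted p of 0.0195, and as a share of the same ORFs it was -0.19 and no longer passed. The K79me3 Input library itself changed by -0.21 before convergent and -0.05 before tandem neighbours. These changes were not particular to last nucleosomes. Over both classes, Input libraries changed at last nucleosomes by 0.20 in K4me3, 0.22 in K18ac and -0.14 in K79me3. At preceding nucleosomes they changed by 0.27, 0.28 and -0.09, and combinations were not tested there. K4me3 combinations changed by 0.23 ± 0.15 (SD) against 0.04 without the mark, with an adjusted p of 0.223 in the exact permutation test, and K18ac combinations by 0.22 ± 0.16 (SD) against 0.04, also 0.223.

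None of the 12 tests in set2 and eaf3 passed. The K18ac Input libraries changed by 0.32 before convergent and 0.01 before tandem neighbours in set2 and by 0.28 and 0.03 in eaf3, close to the 0.36 and 0.07 of H3K36R. K18ac taken again changed by 0.57 and -0.06 in set2 and by 0.46 and -0.04 in eaf3. K4me3 Input libraries changed by 0.35 and 0.28 in set2 and 0.43 and 0.34 in eaf3. At the preceding nucleosomes K4me3 Input changed by 0.41 and 0.34 in set2 and 0.45 and 0.39 in eaf3. K18ac Input changed there by 0.35 and 0.15 in set2, 0.31 and 0.13 in eaf3, and 0.36 and 0.19 in H3K36R. The convergent gain in K18ac was thus not particular to last nucleosomes. The spread over combinations was wide, and bar1, the reference of both strains, had 10044 reads in the K79me3 Input library and 150 in K79me3 followed by K18ac. Without combinations that include a library under 10000 reads, the convergent excess of K18ac in eaf3 was 0.29 with an adjusted exact permutation p of 0.048.

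**Figure D5:**
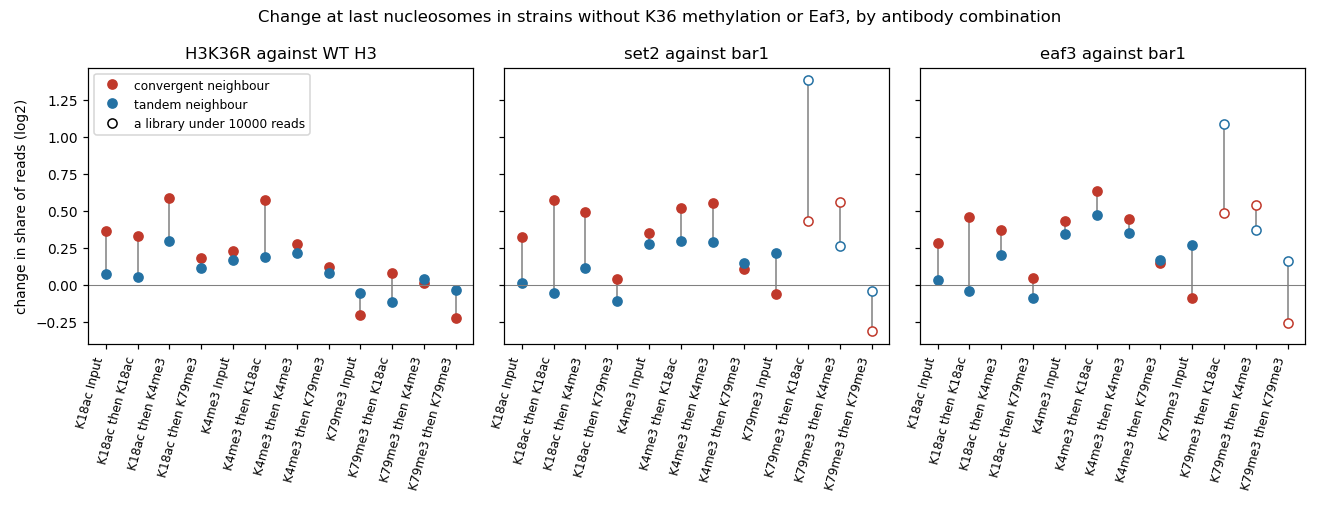
Change of the share of reads on last nucleosomes (y axis, log2, strain against its reference strain) for each antibody combination (x axis), before convergent and tandem neighbours, in H3K36R, set2 and eaf3, with open points where a library held under 10000 reads. K18ac Input libraries changed by 0.36, 0.32 and 0.28 before convergent neighbours and by 0.07, 0.01 and 0.03 before tandem ones.

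Pooled as a group of 3 genotypes against the other strains, with the library set as covariate, the K36 pathway strains had few single last nucleosomes past the threshold of edgeR's quasi-likelihood test. Of 3544 tested, K18ac was higher at 49 (1.38%, against 1.74% of all nucleosomes), of which 46 had a convergent neighbour, and lower at 5 (0.141%, against 0.624%). K4me3 was higher at 71 (2.00%, against 2.79%), 47 of them convergent, and lower at 5 (0.141%, against 0.585%). Over both classes together, the share of last nucleosomes called was thus near or below that of all nucleosomes. By class, K18ac was higher at 2.52% of convergent last nucleosomes, above the 1.74% of all, and at 0.175% of tandem ones. K4me3 was higher at 2.57% and 1.40%. Of the preceding nucleosomes, 2.20% were higher in K18ac (3.19% of convergent and 1.16% of tandem ones) and 3.23% in K4me3. The median change of last nucleosomes was 0.28 before convergent and 0.03 before tandem neighbours in K18ac (-0.01 over all nucleosomes). In K4me3 it was 0.33 and 0.25 (0.06 over all). At preceding nucleosomes the medians were 0.33 and 0.16 in K18ac and 0.39 and 0.31 in K4me3. No last nucleosome was called for K79me3 by edgeR (against 0% of all nucleosomes) or by DESeq2, with 267 last nucleosomes at an unadjusted p under 0.05 in edgeR and 117 in DESeq2.

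These calls depend on single libraries and on the tool. DESeq2 called 0 last nucleosomes for K18ac and for K4me3, with 243 and 308 at an unadjusted p under 0.05. For K4me3 it gave no adjusted p at 1281 of the 3544 last nucleosomes, so its 0 covers only the rest. K18ac was higher at 0 last nucleosomes without the set covariate, at 10 without WT H3, 11 without set2 and 26 without eaf3, but at 91 without H3K4R. K4me3 was higher at 23 without WT H3 and 43 without eaf3. Without bar1 the second set holds only pathway strains, so the comparison rests on H3K36R alone. Without H3K36R it rests on set2 and eaf3 against bar1 alone. Counts of these fits are therefore not read as dependence on single libraries. TMM scaling left 6 higher in K18ac and 31 in K4me3.

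The called nucleosomes are described by neighbour class and ORF length, both part of how the members were chosen, and by gap. The 49 with higher K18ac were 93.9% convergent, beside 51.5% of all last nucleosomes tested, with a median gap of 242 bp beside 310 and a median ORF of 2040 bp beside 1708.5. The 71 with higher K4me3 were 66.2% convergent, with a median ORF of 2205 bp. Both calls had 2 nucleosomes in common (4.08% of the first and 2.82% of the second), those of MAK10, a subunit of an N-terminal acetyltransferase, and YJL070C.

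The largest K4me3 increase lay at the end of SPT6, which encodes a histone chaperone of elongating polymerase, at chromosome VII 724627 to 724777, 62 bp before the stop codon and 284 bp from the convergent YGR117C. It held 1.32, 0 and 0 RPM in WT H3, H3K18R and bar1, and 1.85, 15.4 and 20.2 in H3K36R, set2 and eaf3. The 3 pathway strains lay above the others, and H3K36R did so by a margin of a single read (log2 fold change 3.52, adjusted p = 0.0086). YSP2, a sterol transfer protein, held 0, 0 and 1.71 RPM in WT H3, H3K18R and bar1 and 4.63, 8.27 and 13.6 in H3K36R, set2 and eaf3. MSH3, of mismatch repair, held 0, 0 and 1.71 against 2.78, 20.1 and 11.3, and MAK10 0, 0 and 3.42 against 4.63, 14.2 and 17.8. In all 4 genes set2 and eaf3 held the most reads. YEN1, a resolvase of DNA junctions, rose by 2.66 on the log2 scale, and YLR035C-A, a Ty ORF with near-identical copies, by 2.65. The largest decreases were those of ADH7, an alcohol dehydrogenase (-2.74), and SGA1, a sporulation glucoamylase (-1.49).

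K18ac rose at the end of ATG9, a membrane protein of autophagy, at chromosome IV 187835 to 187985, 8 bp before the stop codon and 235 bp from the convergent NOP14. It held 2.89, 5.39 and 6.00 RPM in WT H3, H3K4R and bar1, and 12.3, 14.7 and 19.9 in H3K36R, set2 and eaf3, so the groups did not overlap (log2 fold change 1.52, adjusted p = 0.021). DBP7, a helicase of ribosome assembly, held 5.77, 7.19 and 8.41 against 13.9, 30.3 and 19.9 (1.36). ARX1, an export factor of the large ribosomal subunit, held 0.96, 7.19 and 3.60 against 13.1, 15.6 and 6.88, and here eaf3 overlapped with H3K4R (1.59). The 3 with a tandem neighbour were MEP3, an ammonium permease (1.29), ALR1, a magnesium transporter (1.25), and MAK10 (1.12). Among the decreases, HSF1, the heat shock transcription factor, held 13.5, 16.2 and 14.4 against 2.46, 11.01 and 0.77 (-1.75), and THI13 changed by -0.85.

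Of the gene lists, transcription and chromatin held the only call among the pathway strains, SPT6 in K4me3. It is 1 of 15, against 2.00% of last and 2.79% of all nucleosomes. The K4me3 median of the list was 0.70 beside 0.29 over all last nucleosomes. SET2 and EAF3 belong to that list and are deleted in the strains of their names. The 3 genes used as models of elongation and internal promoters had a K4me3 median of 1.56 with no call, and the other lists had none in any mark. VPS13 held 0, 1.90 and 1.71 K4me3 RPM in WT H3, H3K18R and bar1 and 1.85, 10.6 and 4.15 in H3K36R, set2 and eaf3.

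Between WT H3 and bar1, the reference strains of both library sets, the mark to H3 ratios of 385 last nucleosomes with at least 20 H3 reads had Spearman correlations of 0.66 for K36me3, 0.40 for K4me3, 0.39 for K18ac and 0.15 for K79me3. This correlation is across nucleosomes, which are not replicates, and both ratios share the H3 reference. Depth differed between the marks. Median reads per nucleosome in WT H3 and bar1 were 53 and 7 for K36me3, 3 and 5 for K4me3, 12 and 22 for K18ac, and 25 and 0 for K79me3. How far depth set the order of the marks was not tested.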

How the data were processed

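The table deposited by the authors holds raw counts, that is, whole reads for each atlas nucleosome in each library. Alignment used Bowtie2 and sacCer3, per the submitters' processing notes; its version and the rule that assigned reads to nucleosomes were not given in the sources used here. The atlas lists 66360 nucleosomes of 151 bp. Genes came from a RefSeq table of the same build, with the strand read from the systematic name (6002 of 6021 protein-coding genes used), and each nucleosome was placed by its centre: 51629 lay in 1 ORF, 13031 in none and 372 in several.

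Strains served as replicates of a mark's Input libraries; strains lacking the residue, and set2 for K36me3, were left out. Classes and positions were compared with exact sign-flip permutation tests over strains (8 tests), strain changes with exact permutation tests over 12 antibody combinations without K36me3 (18 tests), each with Benjamini-Hochberg adjustment. Single nucleosomes were tested with edgeR 4.0.16 (R 4.3.3, quasi-likelihood, library-total scaling, at least 50 reads, 17 and 19 libraries, Benjamini-Hochberg adjusted p under 0.05), and with DESeq2 1.42.0 as an alternative. Sums and permutation tests used Python 3.11.15. Permutation tests and edgeR fits were tested on simulated data. Intervals cover counting error only.

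Named nucleosomes were the largest increases and decreases among calls (2 of each per mark and class against H3; 3 and 1 per class in the K36 pathway strains for K4me3 and K18ac) and the members of 5 gene lists. The members, lists and tests were chosen with earlier results of these data known, including the strain changes late in genes, so they are no independent support. Other settings changed the H3 reference, reads added, ORF length, averaging, scaling, filter and covariates, or left out strains, antibodies and shallow libraries. Of the settings, the 2 that take each library set alone for last against preceding nucleosomes were added after seeing the data. No genome was used here, so no sequence is printed.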

Additional observations from a re-analysis of the deposited data

Results flagged for a closer look

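Last against preceding nucleosomes had opposite signs in both library sets, with every strain of one set on one side of 0 and every strain of the other on the opposite side. The means were -0.20 in the first and 0.12 in the second set for K36me3, -0.16 and 0.15 for K4me3, and -0.21 and 0.13 for K79me3, in log2 units. The K79me3 value of bar1, 0.005 from a library of 10044 reads, is not resolved from 0 at this depth. The difference between sets was not tested, and set, strain background and H3 occupancy of the second set cannot be told apart.

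In H3K36R, the change of last nucleosomes differed between convergent and tandem neighbours more with K18ac than without it, by 0.29 (adjusted p = 0.0195, exact permutation test over 12 combinations). With reads taken as a share of the same ORFs it no longer passed. Combinations share first-step material and a single strain, so this p compares antibody combinations and not cultures.

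Of 34 groups of strains or combinations examined, 3 held a value far from the others, and chance gives about 1 in 20. In set2, K4me3 followed by K79me3 changed by 0.12 at last nucleosomes, the lowest of the 6 combinations with K4me3. The convergent minus tandem change of K79me3 followed by K18ac was -0.95 in set2 and -0.60 in eaf3, against a bar1 library of 150 reads, and both values share that library.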

How the results depend on the processing

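The differences between convergent and tandem neighbours in K36me3 and K79me3 kept their direction under every setting run. That in K4me3 became 0.036 and that in K18ac 0.13 without the H3 reference, and the median over nucleosomes gave 0.17 for K18ac. For last against preceding nucleosomes, K18ac became -0.014 without the H3 reference and -0.024 as a median, K4me3 became 0.15 in ORFs of at least 2000 bp, and the second library set alone gave 0.15 for K4me3, 0.12 for K36me3 and 0.13 for K79me3. Leaving out 1 strain moved the K4me3 value between -0.045 and 0.033.

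For the strain changes with a mark against without it, the share within the same ORFs gave -0.19 for K79me3 and, for convergent minus tandem, 0.23 for K18ac in H3K36R, both no longer past the threshold. It turned K79me3 to 0.12 in set2 and 0.11 in eaf3, and the convergent minus tandem change of K18ac to -0.072 in set2 and -0.028 in eaf3. Without libraries under 10000 reads, K18ac changed by -0.00040 in set2 and -0.012 in eaf3, the convergent minus tandem change of K4me3 was -0.024 in set2 and -0.031 in eaf3, and that of K18ac in eaf3 was 0.29, now past the threshold. In ORFs of at least 2000 bp, K4me3 passed with 0.57 in set2 and 0.64 in eaf3, K18ac turned to -0.025 and -0.13, and the convergent minus tandem change of K4me3 in H3K36R to -0.014. With 5 reads added, K4me3 passed with 0.29 in set2 and 0.33 in eaf3, K79me3 in set2 with -0.27, and, for convergent minus tandem, K79me3 in H3K36R with -0.24 and in set2 with -0.36 and K18ac in eaf3 with 0.30, while K18ac in eaf3 turned to -0.036. Leaving out 1 first antibody gave -0.31 to -0.15 for K79me3 and 0.21 to 0.35 for the convergent minus tandem change of K18ac in H3K36R, neither past the threshold with the fewer combinations. It gave -0.26 to 0.035 for K79me3 in eaf3, -0.059 to 0.49 for K18ac in set2 and -0.076 to 0.47 in eaf3. For convergent minus tandem it gave -0.37 to 0.24 for K18ac in set2, -0.14 to 0.29 in eaf3, and for K4me3 -0.041 to 0.15 in H3K36R, -0.18 to 0.66 in set2 and -0.19 to 0.56 in eaf3.

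Among calls against H3, DESeq2 called 19 higher for K18ac and 6 for K79me3. TMM factors called 162 higher for K4me3, 92 for K18ac, 658 for K36me3 and 24 for K79me3. A minimum of 200 reads left 38 higher and 58 lower for K18ac, 42 and 58 for K36me3, and 1 and 18 for K79me3. Leaving out 1 strain gave 38 to 60 higher for K4me3, 5 to 48 higher and 14 to 72 lower for K18ac, 56 to 233 and 177 to 315 for K36me3, and 0 to 14 and 48 to 184 for K79me3. With the strain as replicate block, higher and lower calls were 63 and 1690 for K4me3, 61 and 75 for K18ac, 264 and 350 for K36me3, and 16 and 243 for K79me3, so the pairing changed no count by over 1.5 times.

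Among calls in the K36 pathway strains, DESeq2 gave 0 in both directions for K4me3 and for K18ac, with no adjusted p at 1281 last nucleosomes in K4me3. RLE size factors gave 21 higher and 3 lower for K4me3 and 2 higher for K18ac, and TMM factors 31 and 2 for K4me3 and 6 and 3 for K18ac. A minimum of 200 reads gave 2 lower for K18ac. Without the set covariate K4me3 was lower at 1, K18ac higher at 0 and lower at 0, and K79me3 higher at 1. Leaving out 1 strain gave 7 to 72 higher and 0 to 6 lower for K4me3 and 0 to 91 higher and 0 to 13 lower for K18ac. Without bar1 the pathway side of the comparison is H3K36R alone, and without H3K36R the other side is bar1 alone. The counts of these fits, part of the ranges, are limited by that design. The cause of the other shifts was not tested. Of the values for named nucleosomes, mean levels and calls within one neighbour class, 609 kept their direction and call or stayed near their value, 122 no longer passed and 129 moved. Shallow H3 libraries limit single nucleosomes, the single library per combination limits every strain change, and the second set has no H3 of its own.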
